A study of Mus musculus with 8 samples.

Results

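Stmn2, Sox11, Sox4, Ptn, Mdk, Mfap2, Nt5dc2 and Cpm are 8 genes that were chosen by their measured levels in these libraries: high in thymic epithelial cells (TEC) of the E13.5 thymus, found in cells with and without RNA of the cortical gene Psmb11, and lower at later stages. They are 8 of the 27514 genes that all the matrices list. Because the choice used the level in each library, the fall at later stages and the Psmb11 split, these are given below as a description with no test. Tests were kept for cycling against resting cells, a contrast that the choice did not use, and for related genes outside the 8.

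The study asked how the transcriptional program of TEC changes with age. Single-cell RNA-seq was performed on sorted TEC of wild-type (WT) mice of the strain C57 B6 (CD45.2), all from the thymus and with no other allele or treatment. TEC line the cortex (cTEC) and the medulla (mTEC) of the thymus, and all libraries held viable EpCAM+ CD45- cells. There were 8 libraries in 6 groups: total TEC at E13.5, which were not sorted further, cTEC (Ly51+ UEA-1-) at E15.5, at E17.5 and from newborn (NB) mice, 2 libraries of adult cTEC and 2 of adult mTEC (Ly51- UEA-1+). The study's methods describe adult mice as some weeks old. The labels give no number of animals per library, so the spread between adult replicates may be partly technical. E13.5, E15.5, NB and replicate 1 of each adult group belonged to one data set of the study (data set 1), and E17.5 and both replicates 2 to another (data set 2). Each age below the adult has 1 library. The E13.5 sort held total TEC and the later ones cTEC, so age and sort cannot be told apart between E13.5 and the later stages. Embryonic thymi were dissociated by one protocol and newborn and adult thymi by another, so age and preparation cannot be told apart between these sets, while within each the protocol was the same.

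The deposited counts are unique molecular identifiers (UMIs), each standing for 1 captured RNA molecule. After limits on mitochondrial UMIs and detected genes, 25750 of 28334 cells were kept, from 507 to 8350 per library. Clusters that carried parathyroid, thymocyte or erythroid markers were left out, which left 25167 epithelial-like cells, from 493 in adult cTEC replicate 1 to 8191 at E17.5. Their median depth ran from 3955 UMIs in adult cTEC replicate 1 to 11567 in adult mTEC replicate 2. Among the 28 pairs of libraries 435 cell barcodes were shared, at most 84 per pair. Summed cTEC markers followed the labels. The 8 cTEC markers reached 8872 to 17353 CPM (UMIs of a gene per 1000000 UMIs of the library) in the cTEC libraries. They stood at 1680 in E13.5 TEC and at 1011 and 1105 in adult mTEC. Adult cTEC replicate 1 stood apart. Its 8 mTEC markers summed to 6203 CPM, of which Ccl21a gave 5398, against 1299 CPM in adult cTEC replicate 2. Replicates 1 and 2 of adult mTEC had 9528 and 5134 CPM, so this cTEC library lay above adult mTEC replicate 2.

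Several of the chosen genes are known from growing embryonic tissue. Sox4 and Sox11 encode closely related transcription factors of the SoxC group, which act in progenitors of many embryonic tissues. Ptn (pleiotrophin) and Mdk (midkine) are the members of a family of secreted heparin-binding growth factors that signal through receptors on the same or neighbouring cells. Mfap2 encodes a protein of extracellular microfibrils, Cpm a carboxypeptidase anchored in the cell membrane, Stmn2 a stathmin that binds tubulin and is best known from growing neurons, and Nt5dc2 a protein with a 5'-nucleotidase domain whose role is little known.

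Of the 8 genes, 7 had their highest level at E13.5, and 6 had their lowest level in an adult library, 5 of them in adult cTEC. The exception was Sox4, which was highest in adult mTEC. The median over the 8 genes of the difference between E13.5 and the mean of the adult cTEC libraries was 4.84 on the log2(CPM + 1) scale (the SDs of the adult pair of single genes ran from 0.22 for Ptn to 2.19 for Nt5dc2). It was 4.40 in the cells of low proliferation score alone and 5.17 in the cells with a UMI of the cTEC genes Psmb11 or Prss16. Whether the genes mark a progenitor state was not tested. Values of the adult groups are given as replicate 1, then replicate 2, and all intervals are 95% and cover counting error only.

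**Figure D1:**
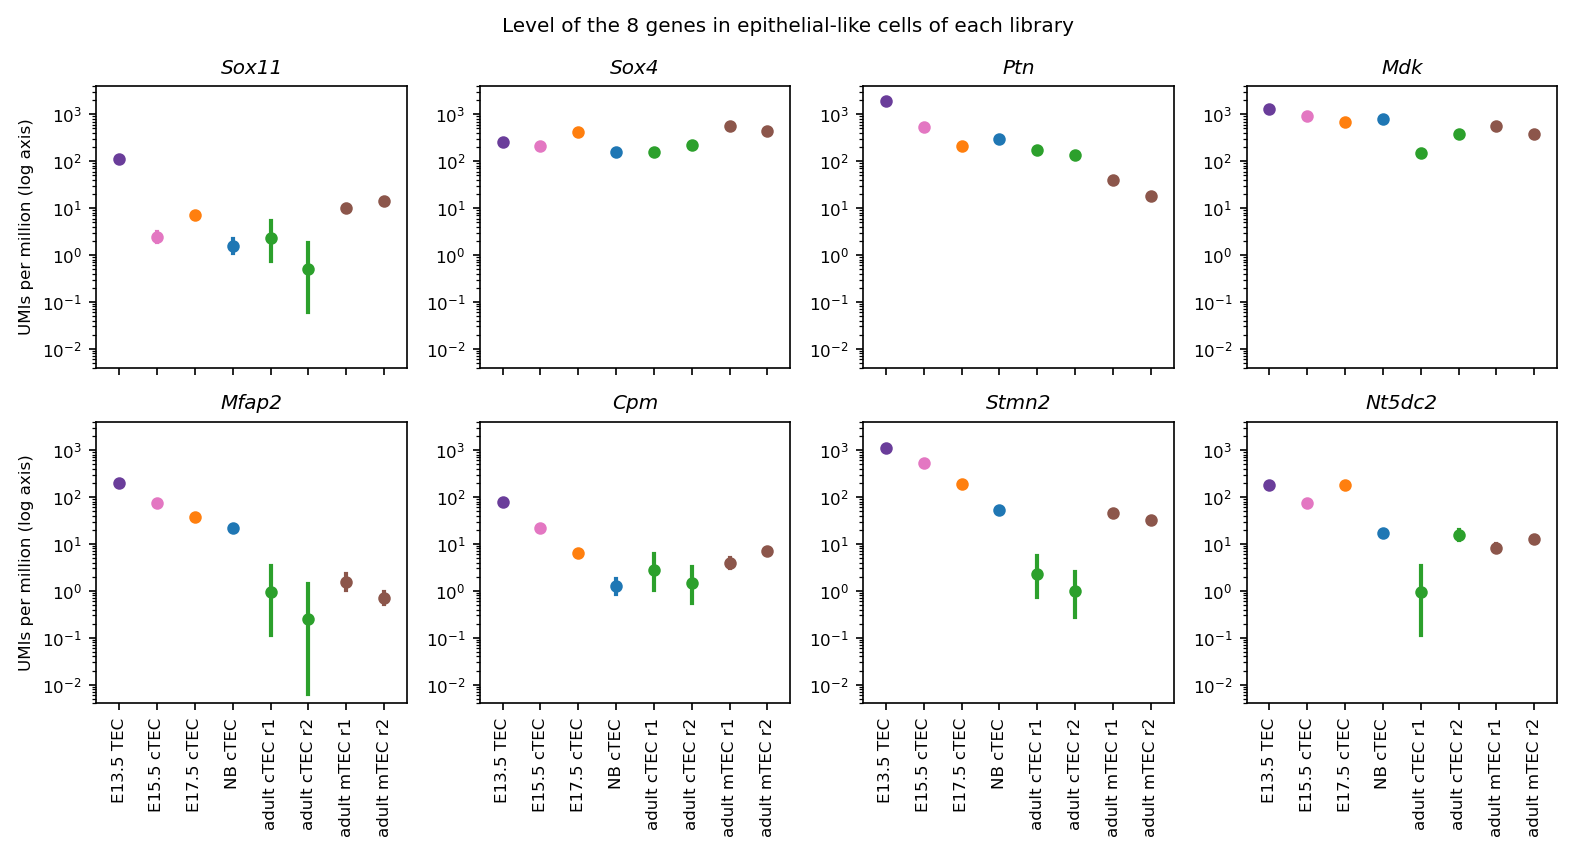
Level of each of the 8 genes in the 8 libraries, in CPM on a log axis, with bars for the 95% exact Poisson interval. Ptn was at 1879 at E13.5 and between 137 and 297 in NB and adult cTEC, Sox11 at 112 at E13.5 and no higher than 7.27 in any later cTEC library, and Sox4 between 154 and 551 throughout.

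Sox11 (chr12:27334264-27342574, minus strand, GRCm38) was the gene with the widest gap between E13.5 and E15.5. In E13.5 TEC it stood at 112 CPM (1621 UMIs), and the 3 younger cTEC libraries, E15.5, E17.5 and NB, had 2.40, 7.27 and 1.56. Adult cTEC had 2.32 and 0.499 CPM and adult mTEC 10.1 and 14.0. E13.5 was apart from all other libraries, and among the rest adult mTEC and E17.5 cTEC were above the other cTEC libraries, whose intervals overlapped from one neighbour to the next in order of level. The ratio of E13.5 to E15.5 was 46.6 (36.4 to 60.6), and that of E13.5 to NB was 71.9 (51.7 to 103).

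Sox4 (chr13:28948919-28953713, minus strand) did not follow its paralog. E13.5 TEC had 255 CPM, while E15.5, E17.5 and NB cTEC had 209, 424 and 154, adult cTEC 158 and 216 and adult mTEC 551 and 440.4. E13.5 was 1.22 times E15.5 (1.17 to 1.27) and 1.66 times NB (1.58 to 1.74), but 0.602 times E17.5 (0.582 to 0.622). Sox4 thus stood higher in E17.5 cTEC and in both adult mTEC libraries than at E13.5, and its name among genes high at E13.5 does not hold across these libraries. Among cTEC, both libraries of data set 2, E17.5 (424) and adult replicate 2 (216), stood above the 154 to 209 CPM of the 3 libraries of data set 1. The interval of adult replicate 2 overlapped that of E15.5, and stage and data set cannot be told apart there. In adult mTEC the library of data set 1 was the higher one, at 551 against 440.4 CPM.

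The sequences upstream of the Sox genes are shown because the paralogs differ in level across the same libraries. The RefSeq promoter table (GRCm38.p6) holds 6 of the 8 genes, and the windows below run over 200 bases that end 51 bases before the annotated start, written 5′ to 3′ on the strand of the gene, which is the minus strand for both. Capitals mark CCAAT or its reverse complement ATTGG, the element bound by the factor NF-Y.
Sox11, chr12:27342769-27342968: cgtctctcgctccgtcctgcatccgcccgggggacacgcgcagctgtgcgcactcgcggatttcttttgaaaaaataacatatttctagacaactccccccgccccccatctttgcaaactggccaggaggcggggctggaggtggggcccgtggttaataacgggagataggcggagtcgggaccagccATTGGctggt
Sox4, chr13:28953750-28953949: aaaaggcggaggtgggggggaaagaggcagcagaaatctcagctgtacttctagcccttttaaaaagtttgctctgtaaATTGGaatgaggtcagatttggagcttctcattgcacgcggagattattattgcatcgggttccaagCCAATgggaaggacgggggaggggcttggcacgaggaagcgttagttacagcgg

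The Sox11 window held 1 match and the Sox4 window 2, in opposite orientations. The 6 genes have 8 promoters in the table, and 6 of these windows held a match on either strand, beside 28.4% of all 32851 promoters. TATAAA was in none of the 8 (9.14% of all promoters), CACGTG, the core of the sites bound by Myc, in none (4.34%), and GGGCGG in 4 (24.6%). A match is a description of letters and shows no binding, and the absence of CACGTG speaks only of these windows. Stmn2 and Mdk were not in the table.

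Ptn (chr6:36714929-36810220, minus strand), a growth factor, was the gene whose levels kept a distinct order, with no overlap of intervals between neighbours. The E13.5 library had 1879 CPM, against 530.0, 210.4 and 297 in E15.5, E17.5 and NB cTEC. Adult cTEC had 170.5 and 137, and adult mTEC the lowest levels, 40.7 and 18.0. E13.5 was 3.55 times E15.5 (3.47 to 3.62) and 6.33 times NB (6.16 to 6.50). The adult cTEC mean was 154 ± 23.4 CPM (SD, n = 2) and the adult mTEC mean 29.3 ± 16.01 (SD, n = 2).

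Mdk (chr2:91929805-91932297, minus strand), its relative, differed less between stages. It went from 1268 CPM in E13.5 TEC to 908, 685 and 787 in E15.5, E17.5 and NB cTEC, 153 and 379.7 in adult cTEC and 568 and 387 in adult mTEC. The fetal and newborn libraries were above all adult ones, but the replicates of adult cTEC differed by a ratio of 0.403, and their SD of 160.4 CPM stood beside a mean of 266. The ratio of E13.5 to NB was 1.61 (1.58 to 1.65).

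Mfap2 (chr4:141010418-141015984, plus strand) and Cpm (chr10:117629500-117687352, plus strand) were near the limit of detection in adult cTEC. From 198 CPM in E13.5 TEC, Mfap2 went through 74.6, 38.3 and 21.9 in E15.5, E17.5 and NB cTEC to 0.927 and 0.249 in adult cTEC and 1.56 and 0.6997 in adult mTEC. In order of level each adult interval overlapped the next, although those of the adult mTEC replicates did not overlap each other, and the ratio of E13.5 to adult cTEC replicate 2 rests on 1 UMI there (794, interval 142 to 31373). Cpm had 77.4 CPM in E13.5 TEC, 22.3, 6.39 and 1.25 in E15.5, E17.5 and NB cTEC, 2.78 and 1.496 in adult cTEC and 3.91 and 7.12 in adult mTEC. Its later levels had no clear order, as adult mTEC replicate 2 overlapped with E17.5, and the intervals of both adult cTEC libraries overlapped with those of NB and of adult mTEC replicate 1. NB and adult mTEC replicate 1 did not overlap each other.

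Stmn2 (chr3:8509360-8561606, plus strand) was lower at each later cTEC stage. E13.5 TEC had 1113 CPM, E15.5 cTEC 527, E17.5 cTEC 188 and NB cTEC 53.1, and adult cTEC were down to 2.32 and 0.997. Adult mTEC held more of it than adult cTEC, at 45.9 and 31.6 CPM. E13.5 was 21.0 times NB (19.8 to 22.3). Since Stmn2 is best known from neurons, markers of neural crest and neurons were read beside it. At E13.5 Sox10, of neural crest and glia, stood at 1.11 CPM, Erbb3 at 9.95, the neuronal genes Elavl4 and Elavl3 at 4.08 and 0.345, and Th and Foxd3 at 0. In the younger cTEC libraries Sox10, Erbb3 and Elavl4 were at no more than 0.0865, 1.02 and 0.8005 CPM. In adult mTEC Elavl4 was at 2.65 and 1.295 CPM, Elavl3 at 2.47 and 2.99 and Th at 5.84 in both, while in adult cTEC these genes were at no more than 0.463. All 9 neural crest and neuronal markers together summed to 19.0 CPM at E13.5 and to 7.28, 5.07 and 3.46 in E15.5, E17.5 and NB cTEC. The sums were 18.5 and 7.48 CPM in adult cTEC and 25.7 and 30.0 in adult mTEC. The part of neural crest or neuronal cells in the Stmn2 levels was not tested.

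Nt5dc2 (chr14:31131053-31139124, plus strand) had nearly the same level at E17.5 and E13.5. E13.5 TEC had 180.2 CPM, and E15.5, E17.5 and NB cTEC had 72.8, 177 and 17.3. Adult cTEC had 0.927 and 15.46 CPM and adult mTEC 8.24 and 12.6. The ratio of E13.5 to E17.5 was 1.02 (0.976 to 1.06), and the lower E15.5 library was in the same data set as E13.5 while E17.5 was not. The adult cTEC replicates differed by a ratio of 0.0599. Nt5dc2 overlaps Stab1, and Sox4 and Cpm overlap predicted genes, on the other strand in GRCm38, and the strand setting of the counting is not given in the sources used here, so reads of those pairs may not be told apart.

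Shares of cells with a UMI were compared after every cell was thinned to 2000 UMIs. A UMI of Ptn was found in 84.8% of E13.5 cells, 56.3% of E15.5 cells, 31.5% of E17.5 cells, 39.3% of NB cells and 26.2% and 21.7% of adult cTEC, and one of Mdk in 87.3%, 77.3%, 69.8%, 72.5%, 23.6% and 41.7% of the same libraries. Both had the order of the levels in these libraries. Sox4 did not, since its share was 53.5% at E17.5 and 51.7% and 44.4% in adult mTEC, whose levels were above that of E17.5, and no order is read from it. A UMI of Stmn2 was found in 73.5% of E13.5 cells and in 0.701% of adult cTEC replicate 1 and 0 of 516 cells of replicate 2, where 1 of 526 cells had one before thinning (0.190%, up to 1.05%). At E13.5 the other shares were 40.2% for Sox4, 32.4% for Mfap2, 30.1% for Nt5dc2, 19.7% for Sox11 and 12.3% for Cpm. Before thinning, the median share over the 8 genes at E13.5 was 73.9%, and after it 36.3%.

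Cells outside the epithelial-like clusters were read beside such shares. In thymocyte-like cells of the NB library (170 cells, median 8605 UMIs, against 6008 in the epithelial-like cells), a UMI of Stmn2 was found in 7.65%, of Sox4 in 30.0%, of Ptn in 23.5% and of Mdk in 50.6%, while Sox11 and Cpm were at 0. The NB epithelial-like shares of Stmn2 (7.98%) and Sox4 (26.0%) did not stand above these. The thymocyte-like cells, with Mdk in so many of them, are no clean background for epithelial RNA, and thymocytes may express Sox4, so neither presence nor absence is read from these shares. Of 159 erythroid-like cells at E17.5, 98 reached 2000 UMIs (median 3565.5 UMIs, against 10455) and 61 shallower ones were left out. The 98 cells had Stmn2 in 21.4%, Sox4 in 48.0% and Nt5dc2 in 19.4%, beside 26.1%, 53.5% and 26.6% of the epithelial-like cells. Ptn at 8.16% against 31.5% and Mdk at 31.6% against 69.8% were further from the epithelial-like shares. In E13.5 parathyroid-like cells (124 cells, median 4255.5 UMIs, against 7203) Stmn2 was in 5.65% and Ptn in 17.7%, below the 73.5% and 84.8% of the E13.5 TEC, and Mdk (61.3%) and Cpm (1.61%) were below the TEC shares too. Mfap2 was in 48.4% of them against 32.4% of the TEC, and Nt5dc2 (29.0%), Sox4 (34.7%) and Sox11 (15.3%) were near the shares of 30.1%, 40.2% and 19.7% in the TEC.

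The 8 genes were also counted together in each cell. At 2000 UMIs a cell had UMIs of a median of 4 of the 8 genes at E13.5, 2 in the younger cTEC libraries and 1 in each adult library. At least 4 of the genes were found in 60.0% of E13.5 cells, 18.3% of E15.5, 11.8% of E17.5 and 2.04% of NB cTEC. The share was 0.234% and 0% in adult cTEC and 1.009% and 0.475% in adult mTEC. None of them was found in 0.108% of E13.5 cells and in 44.2% and 36.4% of adult cTEC.

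**Figure D2:**
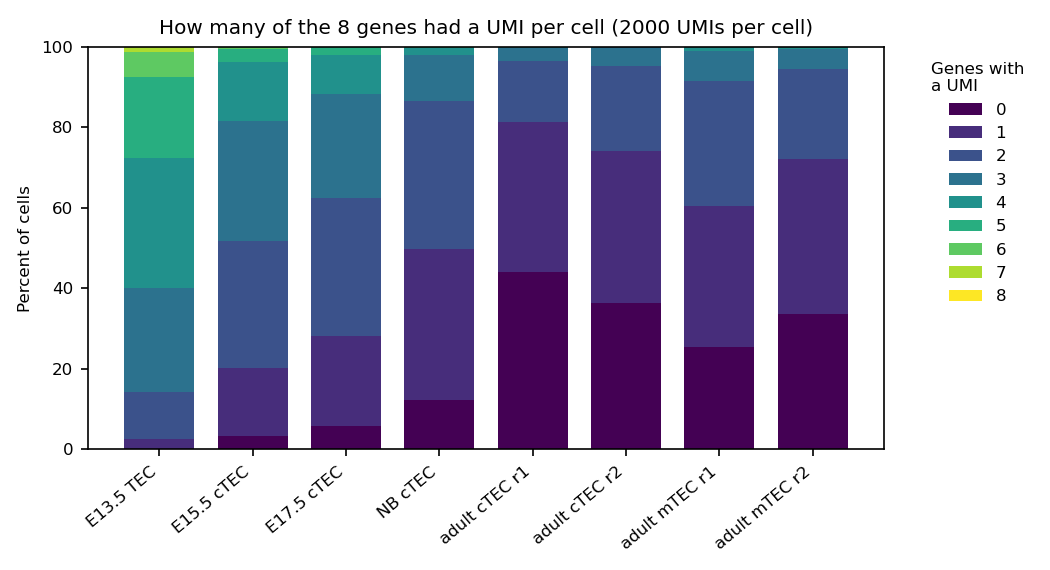
Percent of cells in each library by how many of the 8 genes had a UMI, after thinning each cell to 2000 UMIs, stacked from 0 upward. Cells with 4 or more genes made up 60.0% at E13.5 and 18.3% at E15.5.

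Psmb11, a subunit of the thymus-specific proteasome, marks cTEC from early in development. At E13.5, 1071 cells had a Psmb11 UMI and 786 had none, at nearly equal median depth (7103 and 7309.5 UMIs). All 8 genes were present on both sides of this split. Ptn was at 2337 CPM in cells with Psmb11 and at 1268 in those without, a ratio of 1.84 (1.80 to 1.89), and Stmn2 at 1223 and 966, a ratio of 1.27 (1.23 to 1.31). Sox11 leaned the other way, with 92.5 CPM with Psmb11 and 138 without (0.671, 0.607 to 0.740), as did Sox4 with 232 and 286 (0.812, 0.761 to 0.866). Mdk (0.899) and Mfap2 (0.912) were slightly lower with Psmb11, while the intervals of Nt5dc2 (0.857 to 1.001) and Cpm (0.942 to 1.20) included 1. With at least 3 Psmb11 UMIs, which 499 cells had, the Cpm ratio turned to 0.740 (0.627 to 0.872) and that of Ptn was 1.99. Psmb11 was lower in cycling cells, and in cells of low proliferation score alone the ratio of Stmn2 was 1.07 (1.005 to 1.14), that of Ptn 1.96, and those of Sox11, Sox4, Mdk and Mfap2 went further down to 0.451, 0.627, 0.739 and 0.619. The ratios of Nt5dc2 (1.15, 0.893 to 1.48) and Cpm (0.8999, 0.605 to 1.35) again had intervals that included 1. These intervals cover counting error in 1 library and no replicate error.

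**Figure D3:**
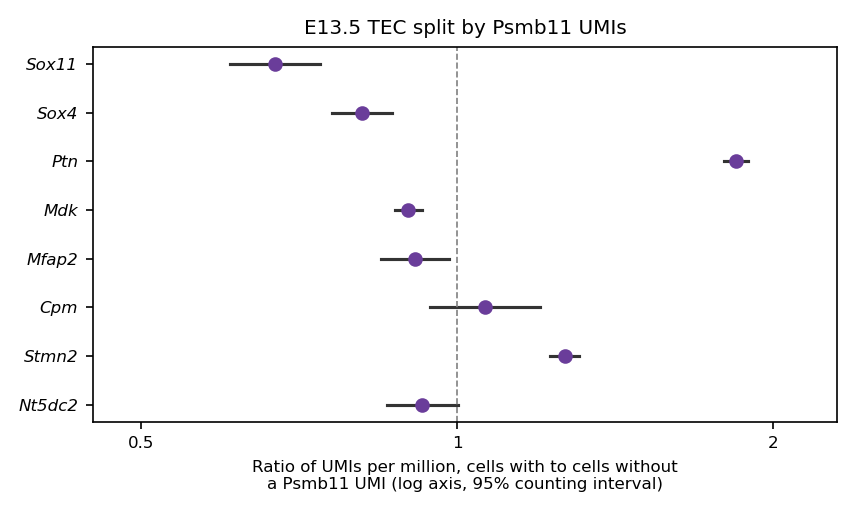
Ratio of the level in CPM of each of the 8 genes at E13.5 in cells with a Psmb11 UMI to that in cells without, on a log axis, with bars for the 95% counting interval and a dashed line at 1. Ptn (1.84) and Stmn2 (1.27) lie to the right of the line, and Sox11 (0.671) and Sox4 (0.812) to the left.

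Clusters of the E13.5 library showed that the 8 genes did not peak in one cluster. Of 12 clusters, 1 was cTEC-like (265 cells, led by Ppp1r27 and Psmb11), 1 mTEC-like (81 cells, led by Ccl5) and 1 parathyroid-like, and 9 had no name. Among the 11 epithelial-like clusters, 7 of the 8 genes ranged over more than 4-fold on CPM + 10, and Sox4 did not. At the coarser Leiden resolution of 0.4, with 6 epithelial-like clusters, 5 of them did, as Mdk (2.13-fold) and Nt5dc2 (2.41-fold) also stayed under that limit. Ptn and Stmn2 were highest in the same cluster, of 156 cells led by Hoxa7 and Tnc with 4 of 8 cTEC markers, at 4324 and 2440 CPM. Ptn was lowest, at 322 CPM, in a cluster of 173 cells led by Krtdap where Krt5, a keratin of basal and medullary epithelium, was at 3431 CPM, yet Stmn2 was second highest there, at 1739 CPM. In the mTEC-like cluster Sox11 (23.9 CPM), Mdk (489.7), Mfap2 (31.1) and Nt5dc2 (69.4) were at their lowest, and at the coarser resolution these genes were lowest in a cluster led by Krt17.

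The highest levels of 4 of the genes were in a small cluster with mesenchymal genes. It held 32 cells led by Lum and Dcn, with 2 of 8 mesenchymal markers, Epcam at 1431 CPM and Foxn1, the master regulator of TEC, at 17.4 CPM. Sox11 was at 692 CPM there, Mfap2 at 721, Mdk at 2181 and Sox4 at 494. At the coarser resolution the cluster led by Lum kept the highest level of 3 of them, while Sox11 was at 266 CPM there and at 273 in the one led by Nkx2-1. A further cluster of 61 cells was led by the thyroid genes Nkx2-1, Hhex and Pax8, with Sox11 at 273 CPM and Nt5dc2 at 329.9, its highest, and with Stmn2 at 36.0 and Cpm at 4.23, their lowest. Without both clusters the E13.5 level of Sox11 was 99.1 CPM in place of 112, so most of its UMIs were in the other clusters. Cpm was highest in clusters led by the cell-cycle genes Ube2c (123 CPM) and Ccne1 (115 CPM).

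**Figure D4:**
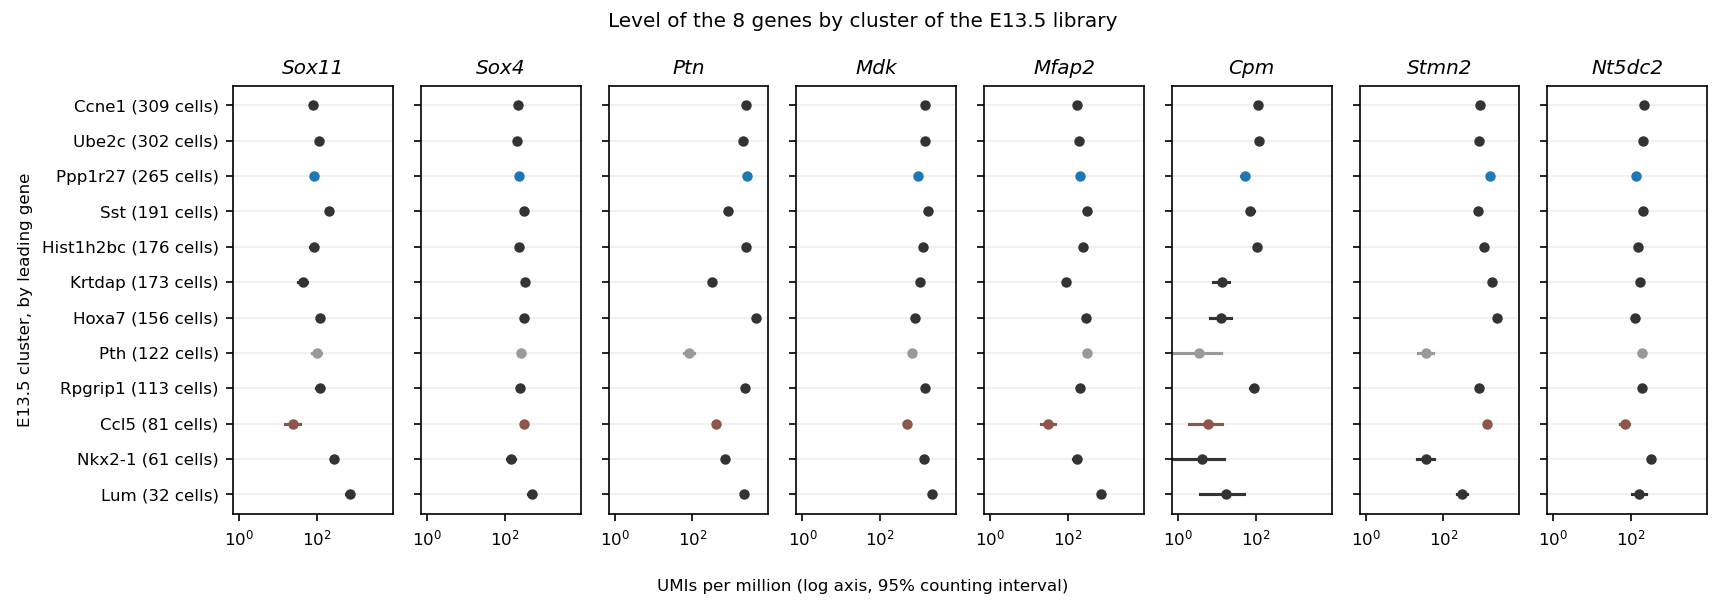
Level of each of the 8 genes in the 12 clusters of the E13.5 library, in CPM on a log axis, with the leading gene of each cluster. Blue marks the cTEC-like, brown the mTEC-like and grey the parathyroid-like cluster, and black the unnamed ones. Ptn and Stmn2 peaked in the Hoxa7-led cluster, and Sox11 and Mfap2 in the Lum-led one.

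The choice of genes did not use the cell cycle, but the share of cells of high proliferation score was lower at later stages too, from 75.8% in E13.5 TEC through 29.2% and 14.4% in E15.5 and E17.5 cTEC, and 378 of 3435 cells in NB cTEC, to 1.62% and 8.17% in adult cTEC, with 10.9% and 13.8% in adult mTEC. Counts were therefore summed over cells of high and of low score in each library, and the 16 sums were compared in edgeR with the library as a block. Of 16876 genes tested, 31.4% passed an adjusted p of 0.05, 9.60% higher and 21.8% lower in cycling cells (31.0% without the phase genes that define the score), and the median gene stood at -0.22. All 8 genes were tested and 4 passed, 3 of them higher and 1 lower, a share of 4 in 8 beside the 31.4% of all genes. Adjusted p-values are from edgeR's quasi-likelihood test with Benjamini-Hochberg adjustment throughout.

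Mdk was higher in cycling cells of 8 of 8 libraries. Cycling against resting cells had 1329 against 981 CPM in the E13.5 library, 1185 against 756 and 1063 against 606 in E15.5 and E17.5 cTEC, 1178 against 728 in NB cTEC, 343 against 148 and 760.2 against 333 in adult cTEC and 798 against 519.6 and 624 against 324 in adult mTEC. As a log2 difference edgeR gave 0.74 (SE 0.080, adjusted p = 1.94e-05), and the ratio ran from 1.35 to 2.33 over the libraries. Nt5dc2 was higher in 7 of 8 libraries, by 1.40 (SE 0.24, edgeR adjusted p = 0.000922). The exception was adult cTEC replicate 1, whose 8 cycling cells held no Nt5dc2 UMI at a floor (3 UMIs) of 51.5 CPM, against 0.952 CPM in its resting cells, and so show no direction.

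Ptn rose by 0.96 in cycling cells (SE 0.22, edgeR adjusted p = 0.00651) but not in every library. It was higher in 6 of 8, for example 733 against 419 CPM at E15.5 and 612 against 249.8 in NB cTEC, and lower in cycling cells at E13.5, with 1823 against 2142, and in adult mTEC replicate 1, with 38.0 against 41.2. The difference of the effect between E13.5 and the rest of the libraries, a term added to edgeR after the values were seen, was -1.31 for Ptn (SE 0.54, adjusted p = 1). That fit called 0 of 18138 genes (0%, with 386 at an unadjusted p under 0.05), so no gene passed for this 1 library.

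Stmn2 was the one that fell in cycling cells (-0.68, SE 0.12, edgeR adjusted p = 0.000941). Its level was lower in each of the 6 libraries outside adult cTEC, with 963 against 1819 CPM in E13.5 TEC, 430.3 against 580.2 in E15.5, 116 against 203 in E17.5 and 43.1 against 54.6 in NB cTEC. In adult mTEC the pairs were 22.0 against 50.9 and 26.2 against 33.0. In both adult cTEC libraries cycling cells held no Stmn2 UMI, but their floors of 51.5 and 6.79 CPM lay above the 2.38 and 1.12 CPM of resting cells, so no direction can be read there. Markers of both lineages moved with it at E13.5. Psmb11 was lower in cycling cells of all 6 libraries of E13.5 TEC and cTEC, at 193 against 457 CPM at E13.5 and 801 against 1674 at E15.5. Krt5 was lower in cycling cells at E13.5, at 568 against 1180 CPM, but not at E15.5, at 112 against 74.1. It was also lower at E17.5 (54.5 against 82.7), in NB cTEC (74.9 against 88.8) and in adult mTEC replicate 1 (354 against 658). In adult mTEC replicate 2 it had 369 against 335, and in adult cTEC 395 against 294 and 147 against 149. The part of Psmb11 and Krt5 in the Stmn2 result was not tested.

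Sox4 (-0.04, adjusted p = 0.774), Mfap2 (-0.25, 0.453), Sox11 (0.41, 0.306) and Cpm (0.28, 0.613) did not pass in edgeR. For Cpm the pooled value hid libraries that moved in opposite directions. Cycling against resting cells had 84.3 against 44.5 CPM of Cpm in E13.5 TEC, 36.0 against 14.9 in E15.5, 10.2 against 5.60 in E17.5 and 2.32 against 1.09 in NB cTEC. In adult mTEC it was the other way, at 1.40 against 4.43 and 2.12 against 8.45. Adult cTEC had no Cpm UMI in cycling cells and 2.86 and 1.68 CPM in resting ones, below the floors of 51.5 and 6.79 CPM, and show no direction. Over the 4 fetal and newborn libraries alone it was higher in cycling cells by 1.03 (SE 0.11, edgeR adjusted p = 4.33e-05), and without adult mTEC replicate 2 it passed over the other 7 as well (0.78, adjusted p = 0.0162).

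The difference of the cycling effect between the adult and the fetal and newborn libraries was tested in edgeR as a term added after these values were seen, and 7.33% of 16876 genes passed. Of the 8 genes 3 passed. The adult libraries were cTEC and mTEC and the fetal and newborn ones held no mTEC sort, so age and lineage cannot be told apart here. Cpm differed by -2.94 (SE 0.28, edgeR adjusted p = 0.00036), and its adult direction rests on mTEC, since cycling adult cTEC held no Cpm UMI. Nt5dc2 differed by 1.64 (SE 0.20, edgeR adjusted p = 0.000794). It rose more in cycling adult cells, where it went from 4.65 to 25.5 and from 6.49 to 35.4 CPM in mTEC. Mfap2 differed by -6.92 (SE 1.34, adjusted p = 0.0121), but all 4 adult sums of cycling cells held no Mfap2 UMI, so that the estimate depends on the prior count and is no bound. The adjusted p of the other 5 genes in this edgeR fit ran from 0.256 to 1.

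**Figure D5:**
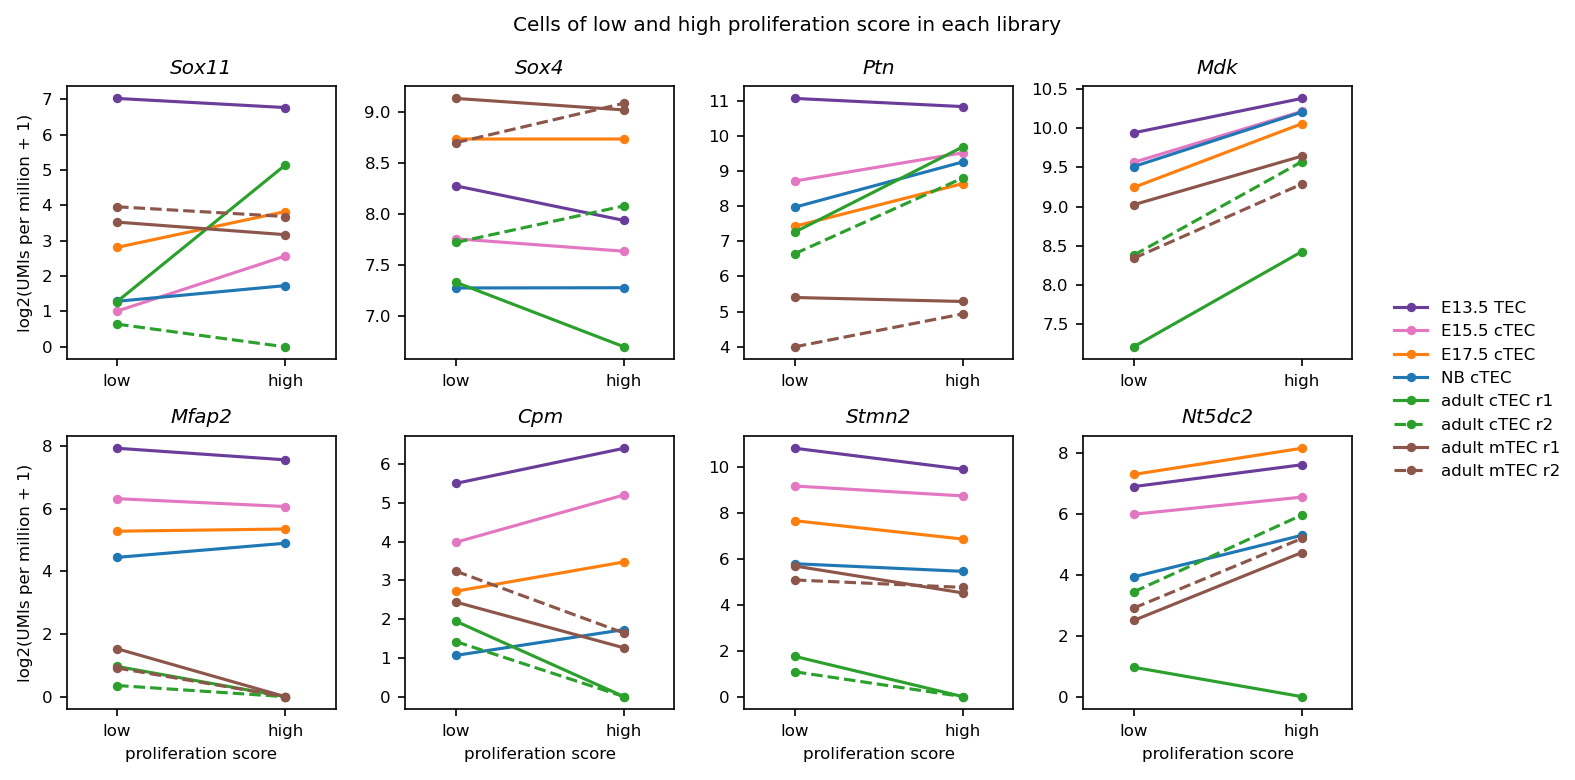
Level of the 8 genes as log2(CPM + 1) in cells of low and of high proliferation score, with a line for each library and dashed lines for replicate 2 of the adult groups. All lines of Mdk rise, those of Stmn2 fall, and those of Cpm go up in the fetal and newborn libraries and down in adult mTEC. The adult cTEC lines of Stmn2 and Cpm end at 0 UMIs, where the floor is above the resting level.

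Adult cTEC were set beside adult mTEC to see which lineage keeps the RNAs. The choice of the 8 genes had read the level in these libraries too, so their differences are a description and only those of related genes are tested. Over 2 libraries each, with the data set as a term, 7 of the 8 genes entered the fit and Mfap2 was too low. Of all 15619 genes in edgeR 32.3% passed, 11.2% higher and 21.1% lower in cTEC, with a median of -0.14. The log2 difference, cTEC minus mTEC, was 2.43 for Ptn (SE 0.40), -4.70 for Stmn2 (SE 0.55), -3.40 for Sox11 (SE 0.67) and -1.48 for Sox4 (SE 0.40). Stmn2 stood at 1.66 ± 0.933 CPM (SD, n = 2) in cTEC and 38.7 ± 10.1 (SD, n = 2) in mTEC, and Sox4 at 187 ± 41.0 and 496 ± 78.5. The log2 differences of Mdk and Cpm were -1.02 and -1.48. That of Nt5dc2, -0.79, has no stable direction, since it was -3.68 without adult cTEC replicate 2, 0.56 without adult cTEC replicate 1 and 0.06 without adult mTEC replicate 2.

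None of the 8 mTEC markers was at 0 in adult cTEC replicate 1, and their part in these results was not tested. Without that library the differences were 2.25 for Ptn and -1.19 for Sox4. The adult libraries also held myeloid markers, 6 in the list, which summed to 308 and 28.7 CPM in cTEC and 441 and 563 CPM in mTEC. The 8 mesenchymal markers summed to 510 and 321 CPM in adult cTEC, most of it from Dcn (499 and 313), and to 99.7 and 69.2 in adult mTEC, and the 6 erythroid markers to 1.39 and 2.24 in cTEC and 84.7 and 108 in mTEC. The 8 thymocyte markers summed to 45.9 and 81.5 CPM in adult cTEC and to 32.1 and 30.4 in adult mTEC. None of the myeloid, mesenchymal, erythroid and thymocyte sums overlapped between the lineages. The mTEC marker sums did, at 6203 and 1299 CPM in adult cTEC and 9528 and 5134 in adult mTEC. The part of all these markers was not tested.

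Of the receptors that bind Ptn and Mdk, Ptprz1, a receptor tyrosine phosphatase, had 12.7 CPM in E13.5 TEC, 57.9, 35.2 and 50.2 in E15.5, E17.5 and NB cTEC, 86.6 and 51.6 in adult cTEC and 13.8 and 10.6 in adult mTEC. Like Ptn it was higher in adult cTEC than in adult mTEC, by 2.40 (SE 0.40, edgeR adjusted p = 1.86e-06), but its level in E13.5 TEC was below that of every cTEC library. Sdc4, a heparan sulfate proteoglycan of the syndecan family, was higher in adult cTEC as well (2.11, SE 0.41, edgeR adjusted p = 2.41e-05), with 65.5 CPM at E13.5, 208 in NB and 656 and 280.2 in adult cTEC. Sdc3 was lower in adult cTEC (-1.46, edgeR adjusted p = 0.0175), and Sdc1 and Sdc2 did not pass. The receptor tyrosine kinases Alk and Ltk stood at no more than 0.241 and 1.37 CPM in any library. Of 14 tested genes of this list 6 were higher and 1 lower in adult cTEC in edgeR, beside 11.2% and 21.1% of all genes.

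Along stage rank, from E13.5 through the ages to adult cTEC, 57 related genes were tested in edgeR over 6 libraries and 7 passed, beside 7.62% of 14327 genes (4.80% higher, 2.82% lower with age). The 6 that rose were led by Bdkrb1, a kinin receptor (1.05 per stage, adjusted p = 0.0392), Sdc4 (0.80, 0.0154), Cpxm1 (0.77, 0.0204) and Tubb2a (0.48, 0.0313). The remaining one was Tead2, a transcription factor of the Hippo pathway, which is no relative of the 8 genes. The lists were drawn up with earlier results of these data known, so its values are given as a description, with a log2 slope of -1.60 per stage (SE 0.23). Its levels went from 114 CPM in E13.5 TEC through 38.1, 16.4 and 7.22 in E15.5, E17.5 and NB cTEC to 0 and 0.748 in adult cTEC, and stood at 11.1 and 8.22 in adult mTEC, with a log2 difference of -4.37 for cTEC minus mTEC. The fit rested on the adult pair: without adult cTEC replicate 1 none of the related genes passed in edgeR (15 of all genes, with 2321 of 14096 at an unadjusted p under 0.05), and without adult cTEC replicate 2 only 3 (458 of all genes).

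Fbn2, Sox12 and Stmn1, each a relative of one of the 8 genes or a partner in its structure, did not pass along stage in edgeR. Fbn2, a fibrillin of the same microfibrils as Mfap2, was at 77.8, 56.8, 27.4 and 15.3 CPM from E13.5 to NB and at 0.463 and 0.249 in adult cTEC (-1.37 per stage, adjusted p = 0.0684). Sox12, the remaining SoxC gene, was at 22.0 CPM at E13.5 and 4.63 and 4.99 in adult cTEC (-0.47, adjusted p = 0.0556). Stmn1, the stathmin of dividing cells, had 986 CPM in E13.5 TEC, 670.1, 389 and 457 in the younger cTEC libraries and 88.5 and 254 in adult cTEC (-0.60, adjusted p = 0.0991). Among other relatives, Nt5dc1 (7.32 to 13.7 CPM) and Cpd (16.2 to 46.3 CPM) were not at their highest at E13.5.

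Stmn1 and Stmn2 moved in opposite directions with the cell cycle. Stmn1 was higher in cycling cells by 2.86 (SE 0.33, edgeR adjusted p = 3.75e-05), where Stmn2 fell. Of the 12 stathmin and neuronal microtubule genes tested there, 2 were higher and 3 lower in edgeR, beside 9.60% and 21.8% of all genes, among them Stmn3 (-2.57) and Dcx (-1.59), which like Stmn2 are best known from neurons. In the adult 9 of the 12 were lower in cTEC than in mTEC and 1 higher, beside 21.1% and 11.2% of all genes, with a median of -1.74 beside -0.14 over all genes. Tead2 was higher in cycling cells (0.64, edgeR adjusted p = 0.0283). In the microfibril list 1 of 16 was higher and 3 lower in cycling cells in edgeR, no larger shares than the 9.60% and 21.8% of all genes. Mfap5, the closest relative of Mfap2, was at 0.223 to 0.748 CPM outside adult mTEC and at 23.0 and 17.6 within it (-4.99 for cTEC minus mTEC, adjusted p = 4.22e-09). Of the carboxypeptidase and kinin genes, 1 of 9 was higher in adult cTEC, namely Cpe (1.55, edgeR adjusted p = 0.0313). Another 5 were lower, beside 11.2% higher and 21.1% lower among all genes. Of the Sox factors and Tead2, 2 of 8 were lower in adult cTEC in edgeR, beside 21.1% of all genes. Of the 8 genes for 5'-nucleotidases 1 was higher and 1 lower in cycling cells, beside 9.60% and 21.8% of all genes. Between the adult lineages 0 of the 5'-nucleotidase genes passed in edgeR (1 at an unadjusted p under 0.05), beside 32.3% of all genes.

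The remaining related genes of largest estimate past the threshold belong to the same lists. In cycling cells Fbln1, a fibulin of the extracellular matrix, was higher (1.32, edgeR adjusted p = 0.000251), as were Nt5c3b (0.72, 0.000203) and Nrp1, which encodes neuropilin (0.68, 0.0341). Kng1, the kininogen gene, was lower (-2.68, edgeR adjusted p = 0.0206), as was Sox10 (-2.03, 0.0407), and both were sparse, with Kng1 at 0 outside adult mTEC and Sox10 at no more than 6.02 CPM in any library. In adult cTEC Ltbp3, which binds latent TGF-beta, was higher than in adult mTEC (2.73, edgeR adjusted p = 4.31e-07), at 54.2 and 23.7 against 6.80 and 3.90 CPM, as was Notch2 (2.175, 7.65e-06). Sox21 (-5.74, edgeR adjusted p = 3.84e-09) was at 0.463 and 0.249 CPM in adult cTEC and at 20.1 and 15.2 in adult mTEC, and Cpz (-5.12, 0.0004) was lower too. Kng1 and Stmn4 had no UMI in adult cTEC and stood at 5.96 and 6.82 CPM and at 1.68 and 1.67 CPM in adult mTEC.

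Likeness was described as Pearson's r over the 8 libraries on log2(CPM + 1), which share depth and stage order, and no test is given. Among the 28 pairs of the 8 genes r ran from -0.55 (Sox4 and Ptn) to 0.90 (Stmn2 and Mfap2), with a median of 0.58. Of 8424 other genes with at least 20 CPM in some library, the 10 most like the mean of the 8 were Dcakd, Prelid2, Npm1, Rnf26, Dbn1, Fbxo5, Men1, Kif15, Tead2 and Nme4, with r from 0.971 to 0.983. With log2(CPM + 10) 8 of these 10 were again in the list. Npm1 was at 2094 CPM at E13.5 and 496 and 719 in adult cTEC, and Dbn1 at 58.7 CPM at E13.5 and 0.927 and 1.75 in adult cTEC.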

How the data were processed

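The authors sorted TEC, made Chromium libraries and processed them with Cell Ranger (2.0.1 per the submitters' processing notes, build mm10, with STAR 2.5.1b and bcl2fastq 2.17), which gives UMIs for each gene in each called cell. In data set 2 the matrix headers give a later version, 3.0.1. The deposited values are raw UMI counts, without normalization; the gene lists hold 27998 genes (data set 1) and 31053 (data set 2), and the 27514 shared ones were used.

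Cells over 5% mitochondrial UMIs or over 5000 genes were left out, as in the study's methods. Clusters (2000 variable genes, 20 principal components, 20 neighbours, Leiden resolution 0.8; scanpy 1.11.5, leidenalg 0.10.2, igraph 0.11.9, Python 3.11.15) were named where at least 3 markers and over 50% of a list were at least 4-fold up (pseudocount 10 CPM), and non-epithelial ones were left out. No doublet caller was run. Counts were summed per library and gave CPM with exact Poisson intervals, and shares came from cells thinned to 2000 UMIs, with exact (Clopper-Pearson) intervals. Cells were split by a combined S and G2M score above 0.

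Tests used edgeR 4.0.16 (R 4.3.3) on the sums with filterByExpr, TMM scaling and glmQLFTest, Benjamini-Hochberg adjusted over all genes at 0.05; SEs are the estimate over the root of F. On simulated data with 200 changed genes, the cycling fit (16876 genes, log2 size 1) recovered 200 with 5.66% false calls, the lineage fit (15619 genes, size 2) 172 with 2.82%, and the stage fit (14327 genes, size 1 per stage) 200 with 5.21%. Alternatives were DESeq2 1.42.0 (test and size factors), no filter, all deposited cells, other score and split rules, and E13.5 or 1 adult library left out.

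The members and gene lists were chosen with earlier results of these data known. All 8 members were to be named, and of the related lists the family members of each gene and those past the threshold, at most the 4 of largest estimate per direction. Positions are GRCm38, promoters RefSeq GRCm38.p6. Replicate numbers of adult libraries are names in accession order. Aged mice and other libraries of the study are not analysed here. Some markers of the neural crest and neuronal list are not reported here.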

Additional observations from a re-analysis of the deposited data

Results flagged for a closer look

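In 3 of the 8 genes the difference between cycling and resting cells was not the same in adult and in fetal and newborn libraries, by a term added to the edgeR fit after the values were seen. The log2 difference of the effect was -2.94 for Cpm, 1.64 for Nt5dc2 and -6.92 for Mfap2, and that of Mfap2 rests on adult sums without a UMI. The adult direction of Cpm rests on mTEC, since cycling adult cTEC held no Cpm UMI. As the fetal and newborn libraries held no mTEC sort, age and lineage cannot be told apart in this term.

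Nt5dc2 lay on opposite sides in the 2 data sets: adult cTEC minus adult mTEC was -2.26 on log2(CPM + 1) in data set 1 (0.927 against 8.24 CPM) and 0.28 in data set 2 (15.46 against 12.6 CPM). With 1 library per group and data set, this difference was not tested.

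Signal was also found in cells that the comparisons left out. Sox4 stood at 201 CPM in the thymocyte-like cells of the NB library, above the 154 CPM of its epithelial-like cells. Mdk was found in 50.6% of these thymocyte-like cells at 2000 UMIs, so they also held RNA of another of the 8 genes. Mfap2 stood at 303 CPM in the parathyroid-like cells of E13.5, above the 198 CPM of the E13.5 TEC. No group held the 4 samples that a test for an outlying sample needs.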

How the results depend on the processing

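The call of 4 of the 8 genes in cycling cells held under all alternatives, with 4 or 5 genes (Sox11 joined with no filter, adjusted p = 0.0461 in edgeR, and Cpm in the settings given above); 3612 to 4952 genes passed over the fits that left out 1 adult library. Sox4, which never passed, changed sign to 0.02 with an S or G2M score, and ran from -0.13 to 0.03 with 1 adult library left out, the latter without adult cTEC replicate 1. In adult cTEC against mTEC 1 to 3 of the 8 genes and 1673 to 2931 genes in all passed with 1 library left out, with the members' count a description only, in fits where the lone library of an arm was assumed to vary like the other arm and the data set had no term. The DESeq2 test gave 2570 genes. The difference of Nt5dc2 ran from -3.68 without adult cTEC replicate 2 to 0.56 without adult cTEC replicate 1, and was 0.06 without adult mTEC replicate 2. Along stage the DESeq2 test gave 18 related genes and 2859 in all, the fits without 1 adult cTEC library 0 to 3 and 15 to 458, and that without E13.5 12. The median share of E13.5 cells with a UMI was 20% at 1000 UMIs and 73.9% with no thinning, against 36.3%. The causes were not tested. The labels give no replicate numbers, so no pairing by number was used. The data set as a term joined the adult cTEC and mTEC libraries of each data set, and without this term 4110 genes passed. Depth limits Mfap2, Sox11, Stmn2 and Cpm in adult cTEC, whose levels rest on 1 to 6 UMIs per library, and Nt5dc2 in replicate 1, with 2 UMIs.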
